A study of Mus musculus with 21 samples.

Results

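The values below are those of 10 miRNAs other than miR-124 that were listed as neuronal, namely miR-9-5p, miR-9-3p, miR-137-3p, miR-128-3p, miR-138-5p, miR-129-5p, miR-218-5p, miR-153-3p, miR-488-3p and miR-219a-2-3p. The last of these is better known from oligodendrocytes than from neurons. The 10 were listed by name to ask whether the neural or posterior lobe content of the pituitary differed between genotypes. The count tables held 1909 miRNAs for virgins and 1841 for the breeding trial, with 1816 names in both. Each of the 10 was present in the tables of both cohorts.

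The study examined mice whose *Zeb1* 3′ UTR carried point mutations in its miR-200a/b sites, and small RNAs of the pituitary were sequenced to profile miRNAs. Wild-type (WT), heterozygous knock-in (*Zeb1 200H*) and homozygous knock-in (*Zeb1 200M*) females on a C57BL/6J background were compared. Both cohorts drew on 2 lines derived from separate embryonic stem cell clones. The paper gives a different mix of lines for each whole cohort, with intercross animals in the breeding trial only. The line of each library was not given. The females were killed at proestrus and whole pituitaries were taken, 1 mouse per library.

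The virgin cohort was 8–12 weeks old and comprised 3 WT, 4 *Zeb1 200H* and 4 *Zeb1 200M* libraries. The breeding trial cohort was 28–36 weeks old and comprised 4 WT, 3 *Zeb1 200H* and 3 *Zeb1 200M* libraries. Library preparation, the sequencer and the miRNA dictionary also differed between the cohorts, so that age, breeding and protocol cannot be told apart in any difference between them. All comparisons with WT within a cohort used the same WT libraries.

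Total counts per library were 3816917–10806313 among virgin libraries and 60037–191650 among those of the breeding trial. WT replicate 1 of the virgin cohort stood apart, with a total of 3816917 and a TMM normalization factor of 0.638 against 0.942–1.12 in the other 10 virgin libraries. A count of 0 in a breeding trial library allowed up to 3 counts, which was 15.7–49.97 CPM (counts scaled to the library total) depending on the library. Such floors cover counting error only. Levels are given as TMM-scaled CPM for replicates in ascending order, which were 1, 2 and 4 in virgin WT, 1, 3 and 4 in breeding trial *Zeb1 200H*, and otherwise consecutive.

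Neurons express a set of miRNAs that is scarce in most other tissues, and some of these miRNAs act in neurogenesis while others act at synapses. The posterior lobe of the pituitary holds the endings of hypothalamic neurons together with glial cells, whereas the anterior lobe is endocrine tissue that also expresses several miRNAs first described in brain. In bulk samples such as these, fewer cells of a type and less RNA per cell cannot be told apart.

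The 10 miRNAs together made up 0.848% ± 0.141 (SD, n = 3) of all counts in virgin WT, where the libraries ranged over 0.687–0.942%. In virgin *Zeb1 200H* they made up 1.08% ± 0.0455 (SD, n = 4), and in virgin *Zeb1 200M* 1.12% ± 0.0709 (SD, n = 4). Every virgin *Zeb1 200H* and *Zeb1 200M* library thus had a larger share than every virgin WT library. The breeding trial share was 1.16% ± 0.119 (SD, n = 4) in WT, 1.35% ± 0.124 (SD, n = 3) in *Zeb1 200H* and 1.58% ± 0.0142 (SD, n = 3) in *Zeb1 200M*. The breeding trial *Zeb1 200M* libraries, at 1.57–1.60%, lay above the WT libraries, at 0.981–1.23%, while the *Zeb1 200H* and WT ranges overlapped. On the TMM scale the sums lay closer together, at 10061 ± 606 in WT and 10365 ± 691 in *Zeb1 200M* of the virgin cohort (SD, n = 3 and 4). The breeding trial sums were 12768 ± 1739.9 in WT and 14573 ± 139 in *Zeb1 200M* (SD, n = 4 and 3). The ranges of WT and *Zeb1 200M* overlapped among virgins, whereas all 3 breeding trial *Zeb1 200M* sums exceeded the 4 WT sums. These shares and sums were not tested.

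The label of each group was set against epithelial miRNAs, a list of the miR-200a/b families, whose targets include *Zeb1*, and of other epithelial miRNAs. Their summed level was 109692, 62162 and 60256 in virgin WT, 13325, 11106, 14282 and 12050.3 in *Zeb1 200H*, and 7058, 6433, 6602 and 7275 in *Zeb1 200M*. The breeding trial sums were 75381, 67353, 71029 and 77606 in WT, 13012, 12274 and 12933 in *Zeb1 200H*, and 6885, 8386 and 7454 in *Zeb1 200M*. The 3 genotypes did not overlap in either cohort, and no library lay in the range of another label.

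miR-153-3p had the highest mean of the 10 in each of the 6 groups, ranking 37th to 47th among all miRNAs. miR-219a-2-3p was last in each group and ranked 458th to 707th, with 0 counts in every breeding trial WT library. miR-128-3p, miR-9-5p, miR-9-3p and miR-488-3p held places 6 to 9 in this order in all 6 groups. The range of miR-128-3p overlapped that of miR-138-5p, the place above, in virgin *Zeb1 200M*, although miR-138-5p was higher within each library. Places 2 to 5 were shared by miR-137-3p, miR-129-5p, miR-218-5p and miR-138-5p, whose order varied between groups. In the breeding trial cohort the ranges of miR-153-3p and miR-137-3p overlapped in each genotype. Within libraries miR-153-3p was the higher in every WT library. The 2 were equal in *Zeb1 200H* replicate 3 and miR-153-3p was the lower in *Zeb1 200M* replicate 2, so that their order was not resolved in those genotypes. The ranges of miR-129-5p and miR-218-5p overlapped in virgin *Zeb1 200M*, breeding trial WT and breeding trial *Zeb1 200M*. miR-9-5p and miR-128-3p overlapped in virgin WT and in breeding trial *Zeb1 200H* and *Zeb1 200M*. miR-488-3p and miR-9-3p overlapped in breeding trial WT and *Zeb1 200M*, and miR-219a-2-3p and miR-488-3p in breeding trial WT and *Zeb1 200H*.

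**Figure D1:**
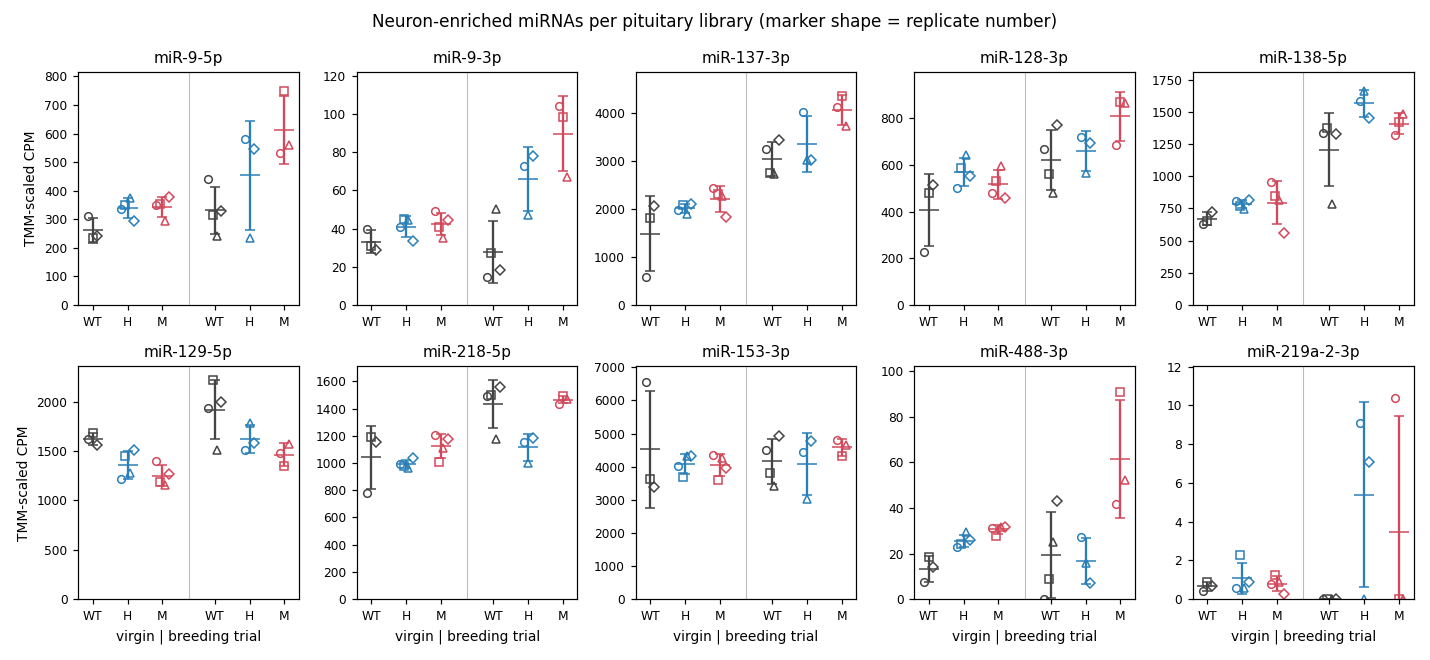
Level of each of the 10 miRNAs in each library, as TMM-scaled CPM (vertical axis), in WT, *Zeb1 200H* and *Zeb1 200M* of the virgin and breeding trial cohorts (horizontal axis). Marker shapes give the replicate number, horizontal lines the group mean and vertical bars the SD.

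miR-9-5p, which controls the proliferation and differentiation of neural progenitors, was at 312, 234 and 240.0 in virgin WT, 336, 351, 376 and 296 in *Zeb1 200H*, and 348, 352, 293 and 378 in *Zeb1 200M*. Its breeding trial values were 441, 316, 239.8 and 331 in WT, 582, 235 and 546 in *Zeb1 200H*, and 530.4, 749 and 559 in *Zeb1 200M*. In the virgin cohort only WT replicate 1 reached into the ranges of the other genotypes, and on plain CPM no WT library did. In the breeding trial cohort all 3 *Zeb1 200M* libraries lay above all 4 WT libraries, and *Zeb1 200H* replicate 3 lay below every WT library. miR-9-5p rose in breeding trial *Zeb1 200M* against WT, with a log2 fold change of 0.89 (SE 0.194, adjusted p = 0.000947, higher than the WT mean in 3 of 3 libraries). This call was made under each of 13 alternative settings, with adjusted p from 0.000135 to 0.0193. In virgin *Zeb1 200M* the estimate of 0.36 (SE 0.176) had an adjusted p of 0.268, with 4 of 4 libraries above the WT mean. Without WT replicate 1 the virgin *Zeb1 200M* estimate was 0.55 with an adjusted p of 0.00431, and the range over all alternatives was 0.00431 to 0.542.

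In *Zeb1 200H* against WT, miR-9-5p had a log2 fold change of 0.36 in the virgin cohort (SE 0.171, adjusted p = 0.279, above the WT mean in 4 of 4 libraries). Without WT replicate 1 this virgin *Zeb1 200H* estimate was 0.53 and its adjusted p 0.00173, in a range over alternatives of 0.00173 to 0.595. The breeding trial estimate in *Zeb1 200H* was 0.53 (SE 0.240, adjusted p = 0.151, above the WT mean in 2 of 3 libraries). It passed the threshold without *Zeb1 200H* replicate 3, at 0.74 with an adjusted p of 0.0398, and with the replicate number as a block, at 0.54 with an adjusted p of 0.0327. Over its alternatives the adjusted p ranged from 0.0327 to 0.488. Fitted over both cohorts, miR-9-5p rose in *Zeb1 200M* (log2 fold change 0.62, SE 0.153, adjusted p = 0.00356, 7 of 7 libraries above the WT mean of their cohort), with adjusted p from 4.66e-05 to 0.0122 over 17 alternatives. It also rose in *Zeb1 200H* in that fit (0.47, SE 0.154, adjusted p = 0.0372, 6 of 7 libraries above the WT mean of their cohort), with adjusted p from 0.000587 to 0.0960 over alternatives. The *Zeb1 200H* call was kept without WT virgin replicate 1, WT breeding trial replicate 1 or *Zeb1 200H* breeding trial replicate 3. It was lost without WT virgin replicate 2 (adjusted p 0.0760) or 4 (0.0625), and without *Zeb1 200H* virgin replicate 1 (0.0639), 2 (0.0833), 3 (0.0960) or 4 (0.0543). It was likewise lost without WT breeding trial replicate 2 (0.0614), 3 (0.0698) or 4 (0.0702), without *Zeb1 200H* breeding trial replicate 1 (0.0920) or 4 (0.0624), and with DESeq2 size factors (0.43, adjusted p 0.0538). The difference of the *Zeb1 200M* effect between cohorts was 0.54 (SE 0.301, adjusted p = 0.670), so that the effects were not shown to differ.

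miR-9-3p, the opposite arm of the same hairpins, was at 39.8, 30.9 and 28.6 in virgin WT, 40.9, 45.0, 44.7 and 33.4 in *Zeb1 200H*, and 49.0, 41.0, 35.0 and 44.3 in *Zeb1 200M*. Breeding trial values were 14.7, 27.1, 50.5 and 18.4 in WT, 72.8, 47.0 and 78.0 in *Zeb1 200H*, and 104, 98.3 and 67.1 in *Zeb1 200M*. These breeding trial values rested on 2–4 counts in WT, 3–11 in *Zeb1 200H* and 9–13 in *Zeb1 200M*. Breeding trial *Zeb1 200M* libraries all lay above the WT libraries, while in the virgin cohort WT replicate 1 overlapped the other genotypes on the TMM scale. The virgin *Zeb1 200M* estimate was 0.34 (SE 0.202, adjusted p = 0.340, above the WT mean in 4 of 4 libraries), and that of virgin *Zeb1 200H* was 0.31 (SE 0.198, adjusted p = 0.393, 4 of 4 libraries). Without virgin WT replicate 1 miR-9-3p passed the threshold in *Zeb1 200M* (0.53, adjusted p 0.0232), where alternatives gave 0.0232 to 0.591. The same library's removal gave a pass in virgin *Zeb1 200H* (0.48, adjusted p 0.0298), where alternatives gave 0.0298 to 0.668.

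miR-9-3p did not pass the filter on low counts within the breeding trial cohort. With no such filter its estimate there was 1.79 in *Zeb1 200M* (SE 0.486, adjusted p = 0.00324, 3 of 3 libraries above the WT mean) and 1.48 in *Zeb1 200H* (SE 0.534, adjusted p = 0.0975, 3 of 3 libraries). It passed the filter without *Zeb1 200M* replicate 3, where the remaining *Zeb1 200M* libraries held 10 and 13 counts and the WT libraries 2–4. It entered that fit only through the group where it was high, so no call is drawn from its estimate of 2.04 there. On all libraries of the comparison DESeq2 gave miR-9-3p an unadjusted p of 0.00835 and no adjusted p. With both cohorts in 1 fit it rose in *Zeb1 200M* (log2 fold change 0.65, SE 0.199, adjusted p = 0.0172, 7 of 7 libraries above the WT mean of their cohort), with adjusted p from 0.00130 to 0.0484 over 17 alternatives. The *Zeb1 200H* estimate in that fit was 0.54 (SE 0.199, adjusted p = 0.0651, 7 of 7 libraries above the WT mean of their cohort). Without WT virgin replicate 1 the *Zeb1 200H* estimate was 0.60 with an adjusted p of 0.00642, and the alternatives spanned 0.00642 to 0.144. The effect on miR-9-3p differed between cohorts by 1.52 in *Zeb1 200M* (SE 0.454, unadjusted p = 0.00273, adjusted p = 0.386). The corresponding difference in *Zeb1 200H* was 1.19 (SE 0.481, unadjusted p = 0.0269, adjusted p = 0.512). Neither difference passed the threshold.

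miR-137-3p, which acts in neuronal maturation and at synapses, was at 592, 1811 and 2056 in virgin WT, 1986, 2085, 1887 and 2101 in *Zeb1 200H*, and 2433, 2319, 2278 and 1828 in *Zeb1 200M*. Its breeding trial levels were 3261, 2757, 2727 and 3434 in WT, 4031, 3021 and 3015 in *Zeb1 200H*, and 4129, 4348 and 3735 in *Zeb1 200M*. Virgin WT replicate 1 was far below the other 10 virgin libraries, and the remaining virgin ranges overlapped. Breeding trial *Zeb1 200M* libraries lay above every WT library, whereas *Zeb1 200H* overlapped WT on the TMM scale. miR-137-3p rose in breeding trial *Zeb1 200M* against WT (log2 fold change 0.44, SE 0.106, adjusted p = 0.00234, 3 of 3 libraries above the WT mean). The call was made under each of 13 alternatives, with adjusted p from 0.000799 to 0.0254. Against breeding trial *Zeb1 200H*, the *Zeb1 200M* estimate was 0.29 (SE 0.140, adjusted p = 0.296, 3 of 3 libraries above the *Zeb1 200H* mean). The virgin *Zeb1 200M* estimate against WT was 0.56 (SE 0.360, adjusted p = 0.373, above the WT mean in 4 of 4 libraries). Without WT replicate 1 it was 0.21, and its alternatives ranged over 0.21 to 0.88 with adjusted p from 0.224 to 0.573.

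In *Zeb1 200H* against WT, the miR-137-3p estimate was 0.45 in virgins (SE 0.349, adjusted p = 0.492, 4 of 4 libraries above the WT mean) and 0.17 in the breeding trial (SE 0.130, adjusted p = 0.424, 1 of 3 libraries above the WT mean). The virgin *Zeb1 200H* estimate was 0.07 without WT replicate 1, the lowest of alternatives that reached 0.75, with adjusted p from 0.260 to 0.622. In the joint fit of both cohorts miR-137-3p rose in *Zeb1 200M* (0.53, SE 0.166, adjusted p = 0.0191, 7 of 7 libraries above the WT mean of their cohort), with adjusted p from 0.000210 to 0.0468 over 17 alternatives. The *Zeb1 200H* estimate in that fit was 0.33 (SE 0.166, adjusted p = 0.183, 5 of 7 libraries above the WT mean of their cohort). The *Zeb1 200M* effect on miR-137-3p differed between cohorts by -0.11 (SE 0.338, adjusted p = 0.9999), so that no difference was shown.

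miR-138-5p, which limits the size of dendritic spines, was at 626, 655 and 725 in virgin WT, 808, 766, 747 and 818 in *Zeb1 200H*, and 953, 846, 814 and 562 in *Zeb1 200M*. The breeding trial values were 1337, 1374, 783 and 1328 in WT, 1583, 1659 and 1454 in *Zeb1 200H*, and 1321, 1422 and 1483 in *Zeb1 200M*. *Zeb1 200H* libraries lay above all WT libraries in both cohorts, and *Zeb1 200M* overlapped WT in both on the TMM scale. On plain CPM the breeding trial *Zeb1 200M* libraries lay above every WT library. In virgin *Zeb1 200H* the log2 fold change against WT was 0.22 (SE 0.121, adjusted p = 0.315, 4 of 4 libraries above the WT mean). In breeding trial *Zeb1 200H* it was 0.38 (SE 0.168, adjusted p = 0.143, 3 of 3 libraries above the WT mean). With the replicate number as a block the breeding trial *Zeb1 200H* estimate was 0.46 with an adjusted p of 0.0327, and its alternatives spanned 0.0327 to 0.361. The *Zeb1 200M* estimates were 0.22 (SE 0.188, adjusted p = 0.509, 3 of 4 libraries above the WT mean) in the virgin cohort and 0.23 (SE 0.147, adjusted p = 0.249, 3 of 3 libraries above the WT mean) in the breeding trial cohort.

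Fitted over both cohorts, miR-138-5p rose in *Zeb1 200H* (log2 fold change 0.32, SE 0.113, adjusted p = 0.0494, 7 of 7 libraries above the WT mean of their cohort). Over 17 alternatives the adjusted p was 0.0421 to 0.121, and among the 14 with 1 library left out the call was kept without WT virgin replicate 1 or WT breeding trial replicate 1. It was lost without WT virgin replicate 2 (0.0909) or 4 (0.0550), and without *Zeb1 200H* virgin replicate 1 (0.0760), 2 (0.0782), 3 (0.0754) or 4 (0.0995). It was also lost without WT breeding trial replicate 2 (0.0524), 3 (0.0894) or 4 (0.0611), and without *Zeb1 200H* breeding trial replicate 1 (0.107), 3 (0.106) or 4 (0.0618). With DESeq2 size factors it was lost at 0.30 (adjusted p 0.0722), and with no filter on low counts at 0.34 (0.121), while DESeq2 kept it. The *Zeb1 200M* estimate for miR-138-5p in the joint fit was 0.28 (SE 0.113, adjusted p = 0.0699, 6 of 7 libraries above the WT mean of their cohort). Without *Zeb1 200M* virgin replicate 4 it was 0.32 with an adjusted p of 0.0294, within a range of 0.0294 to 0.224.

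miR-128-3p, which lowers neuronal excitability, was at 228, 477 and 514 in virgin WT, 500.1, 586, 644 and 552 in *Zeb1 200H*, and 480.4, 529.6, 595 and 459 in *Zeb1 200M*. Breeding trial levels were 668, 560.4, 479.7 and 771 in WT, 719, 564 and 695 in *Zeb1 200H*, and 686, 869.6 and 865 in *Zeb1 200M*. WT replicate 1 was again lowest in the virgin cohort, and the ranges of *Zeb1 200M* and WT overlapped in both cohorts on the TMM scale. On plain CPM the breeding trial *Zeb1 200M* libraries lay above every WT library. The breeding trial *Zeb1 200M* estimate against WT was 0.38 (SE 0.160, adjusted p = 0.0623, 3 of 3 libraries above the WT mean). Without WT replicate 4 it was 0.51 with an adjusted p of 0.0130, and with TMM factors computed without the miR-200 miRNAs the adjusted p was 0.0487. Alternatives for that estimate spanned adjusted p from 0.0130 to 0.196.

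The virgin *Zeb1 200M* estimate for miR-128-3p was 0.32 (SE 0.257, adjusted p = 0.489, 4 of 4 libraries above the WT mean). In *Zeb1 200H* against WT it was 0.49 in virgins (SE 0.255, adjusted p = 0.303, 4 of 4 libraries above the WT mean) and 0.11 in the breeding trial (SE 0.179, adjusted p = 0.697, 2 of 3 libraries above the WT mean). Without WT replicate 1 the virgin estimates were 0.07 in *Zeb1 200M*, where alternatives reached 0.54 with adjusted p from 0.289 to 0.699, and 0.22 in *Zeb1 200H*, where they reached 0.69 with adjusted p from 0.155 to 0.523. With both cohorts in 1 fit the *Zeb1 200M* estimate was 0.38 (SE 0.149, adjusted p = 0.0645, 7 of 7 libraries above the WT mean of their cohort). It passed the threshold without WT virgin replicate 4 (adjusted p 0.0432), *Zeb1 200M* virgin replicate 4 (0.0495) or WT breeding trial replicate 4 (0.0372), in a range of 0.0372 to 0.148. The joint *Zeb1 200H* estimate for miR-128-3p was 0.37 (SE 0.151, adjusted p = 0.0944, 6 of 7 libraries above the WT mean of their cohort). Without WT breeding trial replicate 4 that *Zeb1 200H* value had an adjusted p of 0.0461, in a range of 0.0461 to 0.204.

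miR-129-5p, which acts on ion channels and synaptic scaling, was at 1624, 1688 and 1567 in virgin WT, 1213, 1451, 1274 and 1506 in *Zeb1 200H*, and 1396, 1184, 1155 and 1270.2 in *Zeb1 200M*. Breeding trial libraries gave 1939, 2223, 1515 and 2002 in WT, 1511, 1785 and 1582 in *Zeb1 200H*, and 1477, 1346 and 1573 in *Zeb1 200M*. In the virgin cohort every *Zeb1 200H* and *Zeb1 200M* library lay below every WT library on the TMM scale, and the groups overlapped on plain CPM. In the breeding trial cohort WT replicate 3 lay within the *Zeb1 200M* range, and the other WT libraries lay above it. miR-129-5p fell in breeding trial *Zeb1 200M* against WT (log2 fold change -0.38, SE 0.130, adjusted p = 0.0255, 3 of 3 libraries below the WT mean). Over 13 alternatives the adjusted p was 0.00613 to 0.151. The call was lost without WT replicate 1 (adjusted p 0.0561) or 2 (0.106), without *Zeb1 200M* replicate 1 (0.0701), 2 (0.151) or 3 (0.0513), and with the replicate number as a block (0.110).

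In virgin *Zeb1 200M* the miR-129-5p estimate was -0.40 (SE 0.129, adjusted p = 0.114, 4 of 4 libraries below the WT mean). Without WT replicate 1 it was -0.36 with an adjusted p of 0.0203, DESeq2 gave 0.0482 and a fit of all 3 genotypes gave 0.0488, in a range of 0.0203 to 0.566. In the joint fit of both cohorts miR-129-5p fell in *Zeb1 200M* (log2 fold change -0.34, SE 0.0902, adjusted p = 0.00660, 7 of 7 libraries below the WT mean of their cohort). Its adjusted p was 1.44e-05 to 0.0913 over 17 alternatives, and the call was lost with no filter on low counts. In *Zeb1 200H* the estimates were -0.27 (SE 0.132, adjusted p = 0.287, 4 of 4 libraries below the WT mean) in the virgin cohort and -0.23 (SE 0.152, adjusted p = 0.338, 3 of 3 libraries below the WT mean) in the breeding trial cohort. The joint *Zeb1 200H* estimate for miR-129-5p was -0.22 (SE 0.0904, adjusted p = 0.0978, 7 of 7 libraries below the WT mean of their cohort), and DESeq2 gave an adjusted p of 0.00950 in a range of 0.00950 to 0.441. The *Zeb1 200M* effect on miR-129-5p differed between cohorts by 0.05 (SE 0.187, adjusted p = 0.9999), so that no difference was shown.

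miR-218-5p, which is needed for motor neuron function, was at 777, 1194 and 1153 in virgin WT, 989, 976, 964 and 1037 in *Zeb1 200H*, and 1204, 1011, 1108 and 1177 in *Zeb1 200M*. Its breeding trial values were 1491, 1500.3, 1174 and 1561 in WT, 1156, 1002 and 1185 in *Zeb1 200H*, and 1435, 1489.6 and 1469 in *Zeb1 200M*. The breeding trial *Zeb1 200M* libraries lay above every *Zeb1 200H* library and, on the TMM scale, within the WT range. On plain CPM the *Zeb1 200M* libraries lay above every WT library in both cohorts. In the virgin cohort the *Zeb1 200H* libraries lay between WT replicate 1 and the other WT libraries. Against *Zeb1 200H*, the breeding trial *Zeb1 200M* estimate was 0.39 (SE 0.165, adjusted p = 0.214, 3 of 3 libraries above the *Zeb1 200H* mean). The virgin *Zeb1 200M* estimate against *Zeb1 200H* was 0.16 (SE 0.0677, adjusted p = 0.489, 4 of 4 libraries above the *Zeb1 200H* mean). Against WT, miR-218-5p in *Zeb1 200M* was estimated at 0.09 in virgins (SE 0.167, adjusted p = 0.777, 3 of 4 libraries above the WT mean) and 0.05 in the breeding trial (SE 0.124, adjusted p = 0.835, 3 of 3 libraries above the WT mean).

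In breeding trial *Zeb1 200H* against WT the miR-218-5p estimate was -0.33 (SE 0.151, adjusted p = 0.164, 3 of 3 libraries below the WT mean). The virgin *Zeb1 200H* estimate was -0.07 (SE 0.157, adjusted p = 0.825, 4 of 4 libraries below the WT mean). Without WT virgin replicate 1 it was -0.23 with an adjusted p of 0.0378, in a range of 0.0378 to 0.989. Fitted over both cohorts, miR-218-5p had an estimate of -0.16 in *Zeb1 200H* (SE 0.0987, adjusted p = 0.278, 7 of 7 libraries below the WT mean of their cohort). Without WT virgin replicate 1 that joint estimate was -0.24 with an adjusted p of 0.0223, in a range of 0.0223 to 0.630. The joint *Zeb1 200M* estimate was 0.11 (SE 0.0978, adjusted p = 0.466, 6 of 7 libraries above the WT mean of their cohort).

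miR-153-3p, which targets genes of synaptic vesicle release, was at 6553, 3625 and 3389.8 in virgin WT, 4028, 3681, 4309.8 and 4309 in *Zeb1 200H*, and 4349, 3605, 4264 and 3973 in *Zeb1 200M*. The breeding trial libraries were at 4516, 3814, 3421 and 4922 in WT, 4449.6, 3021 and 4760.2 in *Zeb1 200H*, and 4816, 4310.1 and 4644 in *Zeb1 200M*. Virgin WT replicate 1 was the highest virgin library, and without it the virgin *Zeb1 200H* libraries lay above the WT libraries. The ranges of the 3 genotypes overlapped in the breeding trial cohort on the TMM scale. Against WT, miR-153-3p in *Zeb1 200M* was estimated at -0.20 in virgins (SE 0.247, adjusted p = 0.673, 4 of 4 libraries below the WT mean) and 0.16 in the breeding trial (SE 0.108, adjusted p = 0.286, 3 of 3 libraries above the WT mean). In virgin *Zeb1 200M* the sign turned without WT replicate 1, at 0.22, and in virgin *Zeb1 200H* an estimate of -0.17 (SE 0.249, adjusted p = 0.733, 4 of 4 libraries below the WT mean) became 0.23. In the joint fit miR-153-3p was estimated at 0.02 in *Zeb1 200M* (SE 0.136, adjusted p = 0.913, 3 of 7 libraries above the WT mean of their cohort) and -0.05 in *Zeb1 200H* (SE 0.136, adjusted p = 0.873, 5 of 7 libraries below it). The breeding trial *Zeb1 200H* estimate for miR-153-3p was 0.01 (SE 0.144, adjusted p = 0.974, 2 of 3 libraries above the WT mean).

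miR-488-3p, which lies within a gene for neuronal migration, was at 7.39, 18.7 and 14.0 in virgin WT, 23.0, 24.2, 29.4 and 25.8 in *Zeb1 200H*, and 31.2, 27.8, 31.7 and 31.6 in *Zeb1 200M*. Breeding trial values were 0, 9.04, 25.2 and 42.9 in WT, 27.3, 15.7 and 7.09 in *Zeb1 200H*, and 41.6, 90.7 and 52.2 in *Zeb1 200M*. The breeding trial counts behind them were 0–7 in WT, 1–3 in *Zeb1 200H* and 4–12 in *Zeb1 200M*, and miR-488-3p did not pass the filter on low counts there. With no such filter the breeding trial estimate was 1.58 in *Zeb1 200M* (SE 0.551, adjusted p = 0.0350, 3 of 3 libraries above the WT mean) and -0.31 in *Zeb1 200H* (SE 0.813, adjusted p = 0.853, 2 of 3 libraries below it). DESeq2 gave the *Zeb1 200M* value an unadjusted p of 0.05004 and no adjusted p. All virgin *Zeb1 200H* and *Zeb1 200M* libraries lay above all WT libraries, and breeding trial *Zeb1 200M* lay above *Zeb1 200H* but overlapped WT on the TMM scale. miR-488-3p rose in virgin *Zeb1 200M* against WT (log2 fold change 1.12, SE 0.265, adjusted p = 0.0465, 4 of 4 libraries above the WT mean). Over 13 alternatives its adjusted p was 0.000901 to 0.245. The call was lost without WT replicate 4 (adjusted p 0.119), without *Zeb1 200M* replicate 1 (0.127), 2 (0.100), 3 (0.125) or 4 (0.117), and with the replicate number as a block (0.245).

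In virgin *Zeb1 200H* the miR-488-3p estimate was 0.88 (SE 0.265, adjusted p = 0.120, 4 of 4 libraries above the WT mean). Without WT replicate 1 it was 0.66 with an adjusted p of 0.0127, DESeq2 gave 0.0312 and a fit of all 3 genotypes gave 0.0283, in a range of 0.0127 to 0.379. Between virgin *Zeb1 200M* and *Zeb1 200H* the estimate was 0.24 (SE 0.103, adjusted p = 0.515, 4 of 4 libraries above the *Zeb1 200H* mean). With both cohorts in 1 fit miR-488-3p rose in *Zeb1 200M* (log2 fold change 1.23, SE 0.262, adjusted p = 0.000922, 7 of 7 libraries above the WT mean of their cohort), with adjusted p from 2.55e-06 to 0.00278 over 17 alternatives. It also rose in *Zeb1 200H* in that fit (0.81, SE 0.261, adjusted p = 0.0340, 5 of 7 libraries above the WT mean of their cohort), with adjusted p from 0.00888 to 0.0901 over alternatives. The *Zeb1 200H* call was lost without WT virgin replicate 4 (0.0550) or *Zeb1 200H* virgin replicate 2 (0.0657), 3 (0.0901) or 4 (0.0738). The *Zeb1 200M* effect on miR-488-3p differed between cohorts by 0.57 (SE 0.671, adjusted p = 0.859), and the *Zeb1 200H* effect by -1.18 (SE 0.888, adjusted p = 0.681), so that no difference was shown. The breeding trial mean in *Zeb1 200H* was 16.7 against 19.3 in WT.

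miR-219a-2-3p, which acts in the maturation of oligodendrocytes, was at 0.411, 0.884 and 0.684 in virgin WT, 0.564, 2.27, 0.576 and 0.879 in *Zeb1 200H*, and 0.801, 1.22, 0.868 and 0.275 in *Zeb1 200M*. The virgin counts were 1, 9 and 6 in WT, 6, 24, 6 and 8 in *Zeb1 200H*, and 9, 13, 8 and 3 in *Zeb1 200M*. In the breeding trial cohort miR-219a-2-3p had 0 counts in all 4 WT libraries, 1, 0 and 1 in *Zeb1 200H*, and 1, 0 and 0 in *Zeb1 200M*. The ranges of the genotypes overlapped in both cohorts. It did not pass the filter on low counts within either cohort. With no such filter the virgin estimate was 0.15 in *Zeb1 200M* (SE 0.601, adjusted p = 0.915, 3 of 4 libraries above the WT mean) and 0.58 in *Zeb1 200H* (SE 0.619, adjusted p = 0.722, 2 of 4 libraries). No fold is given for the breeding trial cohort, where each library was at or under the floor. In the joint fit of both cohorts its estimate was 0.25 in *Zeb1 200M* (SE 0.535, adjusted p = 0.779, 4 of 7 libraries above the WT mean of their cohort) and 0.74 in *Zeb1 200H* (SE 0.512, adjusted p = 0.350, 4 of 7 libraries above the WT mean of their cohort).

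**Figure D2:**
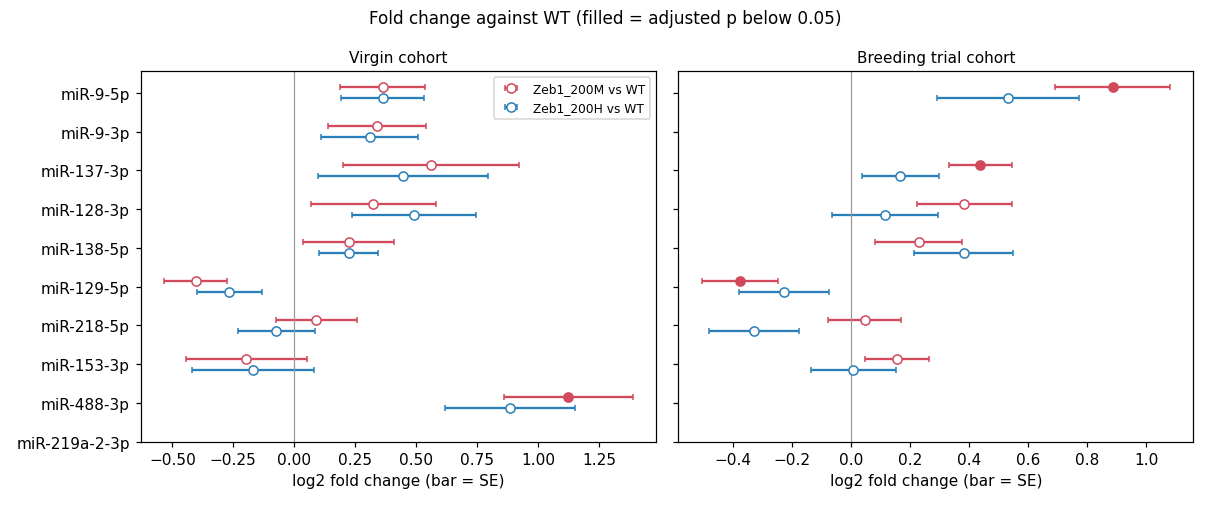
Log2 fold change against WT (horizontal axis) of each tested miRNA (vertical axis) in *Zeb1 200M* (red) and *Zeb1 200H* (blue), in the virgin and breeding trial cohorts. Bars are SE of the edgeR estimate and filled markers have an adjusted p below 0.05.

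In virgin *Zeb1 200M* against WT, 1 of 9 tested miRNAs of the list passed an adjusted p of 0.05, and 6.49% of all 678 tested miRNAs did. At an unadjusted p below 0.05 there were 2 of the 9 and 150 of all 678. DESeq2, fitted without the filter on low counts, gave a p to the 10 listed miRNAs and to 1318 in all, and called 2 and 86. It gave miR-219a-2-3p no adjusted p, so that this miRNA could not be called. Without WT virgin replicate 1 the number was 4 of 9, against 168 of 703 among all miRNAs. In virgin *Zeb1 200H* against WT, edgeR called 0 of 9 (1 at an unadjusted p below 0.05, 1 by DESeq2), against 5.06% of all 672 tested (131 at an unadjusted p below 0.05). Without WT virgin replicate 1 the number in *Zeb1 200H* was 4 of 9, against 151 of 699 among all miRNAs. For virgin *Zeb1 200M* against *Zeb1 200H* edgeR called 0 of 9 (2 at an unadjusted p below 0.05, 0 by DESeq2), against 2.22% of all 675 (63 at an unadjusted p below 0.05).

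In breeding trial *Zeb1 200M* against WT, 3 of 7 tested miRNAs of the list were called, 2 higher and 1 lower, and 35.9% of all 276 tested miRNAs were called. At an unadjusted p below 0.05 there were 4 of the 7 and 123 of all 276. DESeq2, which gave a p to the 10 listed miRNAs and to 709 in all, called 3 and 72. It gave no adjusted p to miR-9-3p, miR-488-3p and miR-219a-2-3p, which therefore could not be called, so these totals are not those of the edgeR shares. On plain CPM, 6 of these 7 were higher in every *Zeb1 200M* library than in every WT library, as were 33.3% of all 276. On the TMM scale 2 of the 7 were, as were 19.2% of all 276. For breeding trial *Zeb1 200H* against WT, edgeR called 0 of 7 (3 at an unadjusted p below 0.05, 0 by DESeq2), against 12% of all 267 (73 at an unadjusted p below 0.05). The replicate number as a block gave 2 of 7 for *Zeb1 200H*, against 47 of all 267. Between breeding trial *Zeb1 200M* and *Zeb1 200H*, edgeR called 0 of 7 (2 at an unadjusted p below 0.05, 0 by DESeq2), against 1.09% of all 274 (40 at an unadjusted p below 0.05).

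Fitted over both cohorts, 5 of the 10 listed miRNAs were called in *Zeb1 200M* and 24.2% of all 566 tested. DESeq2 called 5 of the 10 and 153 of 1303 there. The joint fit called 3 of the 10 in *Zeb1 200H* and 17.5% of all 566, and DESeq2 called 4 of the 10, with miR-129-5p added, and 125 of 1303. A difference of the *Zeb1 200M* effect between cohorts was called by edgeR for 0 of 10 (1 at an unadjusted p below 0.05, 0 by DESeq2), against 0% of all 566. For the *Zeb1 200H* effect it was also 0 of 10 (1 at an unadjusted p below 0.05, 0 by DESeq2), against 0% of all 566. Of the 566, 44 had an unadjusted p below 0.05 for the *Zeb1 200M* difference and 49 for the *Zeb1 200H* difference.

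The arms and close copies of the listed hairpins were examined as a set of 22 names, of which 18 were found for virgins and 17 for the breeding trial. Of those found, 2 in virgins and 9 in the breeding trial had 0 counts in every library. miR-129-1/2-3p was the most abundant in virgins and was not analysed here in the breeding trial, where miR-219a-5p led the names found. edgeR called 0 of 7 tested in virgin *Zeb1 200M* against WT (1 at an unadjusted p below 0.05, 0 by DESeq2). For breeding trial *Zeb1 200M* it called 0 of 1 (0 at an unadjusted p below 0.05, 0 by DESeq2). The shares called over all tested miRNAs were 6.49% and 35.9% in these comparisons.

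miR-124-3p, the reference neuronal miRNA, had breeding trial means of 1347 in WT, 4102 in *Zeb1 200H* and 7379 in *Zeb1 200M* (n = 4, 3 and 3). It rose by a log2 fold change of 2.48 in breeding trial *Zeb1 200M* against WT (SE 0.138, adjusted p = 4.6e-14, 3 of 3 libraries above the WT mean).

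Other brain-enriched miRNAs, a list of 14 with miR-124 included and miR-132-3p the most abundant, summed to 15007, 11012 and 11569 in virgin WT, 12809.8, 14698, 14382 and 13388 in *Zeb1 200H*, and 16692, 16107, 18323 and 14694 in *Zeb1 200M*. The breeding trial sums were 16751, 17009.9, 17104 and 20447 in WT, 24049.9, 23358 and 23191 in *Zeb1 200H*, and 22445, 25142 and 25494 in *Zeb1 200M*. Of the tested forms 5 of 17 were higher and 0 lower in virgin *Zeb1 200M* against WT, and 5 of 11 were higher and 0 lower in the breeding trial cohort. In *Zeb1 200H* they were 3 of 17 and 2 of 11, all higher. DESeq2 called 7 and 3 in *Zeb1 200M* and 6 and 1 in *Zeb1 200H*. Among all tested miRNAs edgeR called 6.49% and 35.9% in *Zeb1 200M*, and 5.06% and 12% in *Zeb1 200H*, in both directions. Called higher were 18 of 678 and 56 of 276 in *Zeb1 200M*, and 11 of 672 and 13 of 267 in *Zeb1 200H*. Forms of miR-124 made up 3 of the 5 in virgin *Zeb1 200M*, 2 of the 3 in virgin *Zeb1 200H* and 1 in each breeding trial comparison. With the miR-124 forms left out, a step chosen after the values were seen, the breeding trial sums were 16478 ± 1522 in WT and 16959 ± 1608 in *Zeb1 200M* (SD, n = 4 and 3), and the virgin sums 11289 ± 2473 and 10691 ± 769 (SD, n = 3 and 4). Breeding trial *Zeb1 200H* stood at 19410 ± 582 (SD, n = 3), with every library above every WT library on the TMM scale, and virgin *Zeb1 200H* at 9964 ± 968 (SD, n = 4). Of the remaining tested forms 4 of 10 were called in breeding trial *Zeb1 200M* and 1 of 10 in *Zeb1 200H*, against 2 of 14 and 1 of 14 in virgins, all higher.

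Oligodendrocyte miRNAs, a list of 4 led by miR-338-3p that also holds miR-219a-2-3p, summed to 780.4, 678 and 649 in virgin WT, 767, 782, 798 and 761 in *Zeb1 200H*, and 832, 774, 779 and 737 in *Zeb1 200M*. Their breeding trial sums were 1403, 913, 884 and 1298 in WT, 1347, 1284 and 1738 in *Zeb1 200H*, and 1643, 1459 and 1506 in *Zeb1 200M*. Against WT, edgeR called 0 of 3 in virgin *Zeb1 200M* (2 at an unadjusted p below 0.05, 0 by DESeq2). The estimates of those 2 had opposite signs, 0.38 for miR-338-3p and -0.76 for miR-219a-5p. For breeding trial *Zeb1 200M* it called 1 of 2, miR-338-3p (log2 fold change 0.45), and DESeq2 called 0. The shares called by edgeR over all tested miRNAs were 6.49% in virgin and 35.9% in breeding trial *Zeb1 200M*. No name of either list was at 0 in every library, and their part in the result was not tested.

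Pituitary endocrine miRNAs, a list of 3 led by miR-7a-5p, summed to 578141, 285999 and 281003 in virgin WT, 254928, 231885, 268349 and 248368 in *Zeb1 200H*, and 216965, 229864, 217194 and 263481 in *Zeb1 200M*. Over the breeding trial libraries they summed to 349779, 296580.0, 333698 and 341283 in WT, 289535, 254506 and 245393 in *Zeb1 200H*, and 230827, 244414 and 225653 in *Zeb1 200M*. WT replicate 1 was the highest virgin library by far. On the TMM scale *Zeb1 200M* lay below WT in both cohorts, and on plain CPM it did so in the breeding trial, whereas *Zeb1 200M* replicate 4 overlapped WT among virgins. Against WT, edgeR called 0 of 3 in virgin *Zeb1 200M* (2 at an unadjusted p below 0.05, 1 by DESeq2), and 2 of 3, miR-375-3p (-0.62) and miR-7a-5p (-0.45), were lower in breeding trial *Zeb1 200M*. Over all tested miRNAs the shares called in both directions were 6.49% in virgin and 35.9% in breeding trial *Zeb1 200M*. In *Zeb1 200H* they were 5.06% and 12%. Called lower were 26 of 678 and 43 of 276 in *Zeb1 200M*, and 23 of 672 and 19 of 267 in *Zeb1 200H*. The epithelial list of 7 was led by miR-200c-3p in WT of both cohorts and in breeding trial *Zeb1 200H*, and by miR-141-3p in the other groups. It was lower in 6 of 8 tested forms in virgin *Zeb1 200M* and *Zeb1 200H* and in 6 of 7 in the breeding trial cohort. None of the names was at 0 in every library, and their part in the result was not tested.

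Vascular miRNAs, a list of 4 led by miR-126a-3p, summed to 11665, 7482 and 6639 in virgin WT, 8884, 8164, 6884 and 8183 in *Zeb1 200H*, and 9598, 8892, 6799.6 and 9046 in *Zeb1 200M*. The breeding trial sums were 8761, 8306, 8697 and 9336 in WT, 10492, 9471 and 10194 in *Zeb1 200H*, and 11243, 11002 and 10019 in *Zeb1 200M*. Against WT, 1 of 4 was higher in virgin *Zeb1 200M* and 3 of 3 in breeding trial *Zeb1 200M*, where DESeq2 called 1. Over all miRNAs tested in these comparisons, edgeR called 6.49% of 678 in virgins and 35.9% of 276 in the breeding trial, in both directions. Called higher were 18 of the 678 and 56 of the 276. At an unadjusted p below 0.05 there were 150 of the 678 and 123 of the 276. Blood cell miRNAs, a list of 6 led by miR-451a, summed to 8929, 8598 and 10346 in virgin WT, 8511, 17795, 11304 and 9886 in *Zeb1 200H*, and 10025, 8866, 9266 and 11039.5 in *Zeb1 200M*. Their breeding trial sums were 7388, 9399.8, 6639.6 and 7879 in WT, 7679.9, 8986 and 7775 in *Zeb1 200H*, and 7873, 8575 and 11398 in *Zeb1 200M*. Called by edgeR against WT were 0 of 6 in virgin *Zeb1 200M* (2 at an unadjusted p below 0.05, 1 by DESeq2). In breeding trial *Zeb1 200M* it called 3 of 5, all higher, where 35.9% of all 276 were called, 56 as higher and 43 as lower. Muscle miRNAs, a list of 3 led by miR-1a-3p, summed to 14.4, 14.9 and 6.61 in virgin WT, 26.7, 43.3, 14.1 and 22.1 in *Zeb1 200H*, and 36.3, 47.6, 12.9 and 69.5 in *Zeb1 200M*. Over the breeding trial they summed to 7.34, 27.1, 0 and 36.7 in WT, 9.10, 15.7 and 28.4 in *Zeb1 200H*, and 10.4, 0 and 0 in *Zeb1 200M*. On plain CPM all but WT replicate 4 and *Zeb1 200H* replicate 4 were at or under the floor of a count of 0 in their library, so no order is drawn. edgeR called 0 of 3 in virgin *Zeb1 200M* against WT (3 at an unadjusted p below 0.05, 2 by DESeq2), and no muscle miRNA passed the filter for a test in the breeding trial. None of these names was at 0 in every library, and their part in the result was not tested.

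Likeness over libraries was described for the 7 listed miRNAs with enough counts in both cohorts, each against 147 others, as the lowest Pearson r over the 11 virgin libraries, the 10 without WT replicate 1 and the 10 breeding trial libraries. Libraries of 1 genotype share that genotype, and no p is given. miR-9-5p was most alike to miR-487b-3p (0.71), miR-140-5p (0.66) and miR-338-3p (0.62). miR-137-3p was most alike to miR-384-3p (0.66), miR-338-3p (0.52) and miR-3068-5p (0.51). The values for miR-128-3p were 0.62 with miR-33-5p, 0.62 with miR-384-3p and 0.57 with miR-598-3p. miR-138-5p followed miR-338-3p (0.55), miR-193a-3p (0.52) and miR-341-3p (0.47) most closely. For miR-129-5p the closest were miR-434-5p (0.76), miR-200c-3p (0.71) and miR-152-3p (0.71). miR-218-5p was closest to miR-30e-5p (0.48), miR-19b-3p (0.42) and miR-127-5p (0.39), and miR-153-3p to miR-708-5p (0.67), miR-879-5p (0.58) and miR-29a-3p (0.57). Among the 7 themselves, miR-137-3p and miR-138-5p had r of 0.57, 0.85 and 0.41 over the 3 sets of libraries, and miR-129-5p and miR-9-5p had -0.62, -0.66 and -0.56.

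The mature sequences of 9 of the 10 miRNAs were taken from RefSeq (build GRCm38.p6) and are shown with seed bases 2–8 in capitals because the seed decides which messages a miRNA pairs with. The 9 sequences had 9 different seeds, so that no 2 of them shared one.
miR-9-5p: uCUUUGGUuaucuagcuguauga
miR-9-3p: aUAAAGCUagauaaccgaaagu
miR-137-3p: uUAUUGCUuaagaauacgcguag
miR-128-3p: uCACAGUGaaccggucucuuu
miR-138-5p: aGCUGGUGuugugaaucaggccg
miR-129-5p: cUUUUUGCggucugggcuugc
miR-218-5p: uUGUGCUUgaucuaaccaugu
miR-153-3p: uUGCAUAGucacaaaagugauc
miR-488-3p: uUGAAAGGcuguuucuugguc

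In RefSeq the 10 miRNAs came from 15 hairpins (build GRCm38.p6), and the genes they lay in were taken from GENCODE release M21. The miR-9 arms came from 3 hairpins, at chr3:88215598-88215686 in an intron of *Gm3764*, at chr13:83738814-83738885 in an exon of *C130071C03Rik* and at chr7:79505264-79505353 in an intron of *Mir9-3hg*. miR-137-3p came from chr3:118433857-118433929, in an exon of *Gm26871*. miR-138-5p came from chr9:122682876-122682974 in an exon of *Gm47135* and from chr8:94324311-94324381 in an exon of *C78859*. miR-128-3p came from chr1:128202361-128202430 in an intron of *R3hdm1* and from chr9:112118636-112118711 in an intron of *Arpp21*. miR-129-5p came from chr6:29022619-29022691 in an exon of *Gm3294* and from chr2:94241364-94241453 in an intron of *Mir670hg*. The hairpins of miR-218-5p were at chr5:48223942-48224051 in an intron of *Slit2* and at chr11:35616816-35616925 in an intron of *Slit3*. miR-153-3p came from chr12:117250817-117250885 in an intron of *Ptprn2*, and miR-488-3p from chr1:158505625-158505733 in an intron of *Astn1*. The miR-219a-2-3p hairpin, at chr2:29845631-29845727, had no host gene and lay opposite *Mir219b*.

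These values have several limits. Groups held 3 or 4 libraries, and the breeding trial libraries were shallow, so that miR-9-3p, miR-488-3p and miR-219a-2-3p did not pass the filter there. Depth and composition set virgin WT replicate 1 apart. In virgins, miR-9-5p and miR-9-3p in both genotypes, and miR-218-5p in *Zeb1 200H*, passed the threshold against WT only without it. The call of miR-488-3p in virgin *Zeb1 200M* was kept without it (edgeR adjusted p 0.000901). Whole pituitaries were sequenced, and the share of posterior lobe in each was not measured. Counts are relative, so that a change in abundant miRNAs moves the shares of the rest. Cohort, age and protocol cannot be told apart, and neither can genotype and litter history in breeding trial *Zeb1 200M*. Which cells the reads came from was not tested, and neither were causes of the differences.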

How the data were processed

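Small RNA reads were counted per miRNA by the authors, and the deposited raw count columns were used. Per the labels and methods, the first 19 nt (virgin) or 18 nt (breeding trial) of each read were matched to a miRNA dictionary. The authors' comparison columns and normalized columns were not used here. Names were compared without the species prefix and a suffix numbering variants of 1 miRNA. Counts were tested in edgeR 4.0.16 by its quasi-likelihood test (TMM factors, filterByExpr with a minimum count of 10 and total of 15, Benjamini-Hochberg over all tested miRNAs), and DESeq2 1.42.0 was an alternative, in R 4.3.3. Totals given for DESeq2 count the miRNAs with a p, and in some comparisons low-count miRNAs among them had no adjusted p and could not be called. Each comparison was fitted on its 2 groups, and the fits of both cohorts had cohort as a term over names in both tables. SE was the absolute log2 fold change divided by the square root of F. All 10 listed miRNAs are named. Of other lists, at most 4 called miRNAs and the most abundant were named, and likeness used the 3 closest. The listed miRNAs and marker lists were chosen with earlier results of these data known. The counts of miRNAs whose groups did not overlap were chosen after the data were seen. Replicate numbers paired WT and *Zeb1 200H* of the breeding trial cohort by correlation of deviations (0.198, 0.288 and 0.329 over 161 miRNAs), and the paper does not state what the numbers pair. The rule was a correlation above 0.1 in each of 3 or more pairs, and no other comparison met it.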

Additional observations from a re-analysis of the deposited data

Results flagged for a closer look

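Of the 30 groups examined for a library far from the rest, 2 held one, and chance gives about 1 in 20 groups. The 30 did not cover every miRNA in every group, so that the lack of a flag does not clear a library such as virgin WT replicate 1. miR-138-5p was at 783 TMM-scaled CPM in WT breeding trial replicate 3, below the other 3 WT libraries at 1328–1374, with a gap of 0.923 of the group's range. miR-488-3p was at 27.8 in *Zeb1 200M* virgin replicate 2, below the other 3 *Zeb1 200M* libraries at 31.2–31.7, with a gap of 0.890 of the range. The cause was not tested in either case.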

How the results depend on the processing

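Among the log2 fold changes of the 10 miRNAs, 12 passed the threshold, and their 188 values under alternatives kept the direction throughout, with 145 past the threshold and 43 short of it. The 76 that did not pass gave 1118 values, of which 1005 kept direction and side, 24 passed the threshold and 89 changed sign, the last over 26 of the 76. The number called in virgin *Zeb1 200M* against WT was 1, and was 2 by DESeq2 (86 of all 1318 miRNAs), 2 with all 3 genotypes in 1 fit (90 of 704), 0 with the replicate block (20 of 678) and 0 to 4 with 1 library left out (25 to 168 of all). It was 4 without WT replicate 1, and 0 without WT replicate 4 or without any single library of *Zeb1 200M*. In virgin *Zeb1 200H* it was 0, and was 1 by DESeq2 (67 of all 1339), 1 with all 3 genotypes in 1 fit (67 of 704) and 0 to 4 with 1 library left out (4 without WT replicate 1, 151 of all 699). In breeding trial *Zeb1 200M* it was 3, and was 5 with no filter on low counts (94 of all 709), where miR-488-3p and miR-9-3p were also called, 4 with TMM without miR-200 (99 of 276), 2 with the replicate block (87 of 276) and 2 to 4 with 1 library left out (76 to 98 of all). In breeding trial *Zeb1 200H* it was 0, and was 2 with the replicate block (47 of all 267) and 0 to 1 with 1 library left out (1 without *Zeb1 200H* replicate 3, 26 of all 282). With both cohorts in 1 fit it was 5 in *Zeb1 200M*, 4 with no filter (142 of all 1306) and 5 to 7 with 1 library left out (121 to 184 of all). In *Zeb1 200H* that fit gave 3, and was 4 by DESeq2 (125 of all 1303), 1 with DESeq2 size factors (98 of all 566), 2 with no filter (98 of 1306) and 0 to 5 with 1 library left out (73 to 138 of all, and 5 without WT virgin replicate 1). Within cohorts the replicate block changed no call beyond miR-488-3p in virgin *Zeb1 200M*, miR-129-5p in breeding trial *Zeb1 200M*, and miR-9-5p and miR-138-5p in breeding trial *Zeb1 200H*. The block was not run in the fits of both cohorts. Replicate numbers were taken to pair libraries where 3 or more pairs each had a correlation above 0.1, which held for breeding trial *Zeb1 200H* against WT. Virgin *Zeb1 200M* against *Zeb1 200H* missed it by 1 of 4 pairs, at 0.251, 0.196, 0.355 and -0.0561, with 6 of 8 libraries most alike to the library of their own number. The same count was 1 of 6 for virgin *Zeb1 200M* and 3 of 6 for virgin *Zeb1 200H* against WT, and 0 of 6 for breeding trial *Zeb1 200M*. Signs changed in these cases. In virgin *Zeb1 200M* against *Zeb1 200H*, miR-9-5p was at 0.00382 with DESeq2 size factors, 0.00201 with TMM without miR-200, 0.00280 by DESeq2, 0.00871 with no filter and 0.00459 with 3 genotypes in 1 fit. For the same comparison miR-138-5p was at 0.00607, 0.00315, 0.00658, 0.0142 and 0.00708 under these 5 settings. In breeding trial *Zeb1 200H* against WT, miR-153-3p was at -0.00106 with TMM without miR-200, -0.0126 by DESeq2, -0.00575 with no filter and -0.0203 with the replicate block. With both cohorts in 1 fit miR-153-3p in *Zeb1 200M* was at -0.0198 with DESeq2 size factors and -0.0199 by DESeq2. With 1 library left out, virgin *Zeb1 200M* against WT gave -0.0428 to 0.19 for miR-218-5p and -0.36 to 0.22 for miR-153-3p. Virgin *Zeb1 200H* against WT gave -0.23 to 0.0269 for miR-218-5p and -0.34 to 0.23 for miR-153-3p, and virgin *Zeb1 200M* against *Zeb1 200H* gave -0.0575 to 0.0820 for miR-9-5p, -0.0489 to 0.13 for miR-9-3p, -0.0983 to 0.14 for miR-138-5p and -0.0728 to 0.0278 for miR-153-3p. The breeding trial gave -0.0143 to 0.0968 for miR-218-5p in *Zeb1 200M* and -0.14 to 0.15 for miR-153-3p in *Zeb1 200H* against WT. The joint fit gave -0.0533 to 0.20 for miR-153-3p and -0.0282 to 0.61 for miR-219a-2-3p in *Zeb1 200M* and -0.12 to 0.14 for miR-153-3p in *Zeb1 200H*. The difference of the *Zeb1 200M* effect between cohorts ranged over -0.52 to 0.29 for miR-137-3p, -0.23 to 0.37 for miR-128-3p, -0.23 to 0.11 for miR-138-5p, -0.15 to 0.13 for miR-129-5p, -0.22 to 0.15 for miR-218-5p, -0.00436 to 0.44 for miR-153-3p, -0.00723 to 1.54 for miR-488-3p and -0.10 to 6.97 for miR-219a-2-3p, the last resting on a WT group with 0 counts in the breeding trial. The difference of the *Zeb1 200H* effect ranged over -0.0932 to 0.43 for miR-9-5p, -0.65 to 0.13 for miR-137-3p, -0.0251 to 0.24 for miR-138-5p, -0.0891 to 0.14 for miR-129-5p and -0.19 to 0.36 for miR-153-3p. The cause was not tested.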
